A study of Rattus norvegicus with 144 samples.

Results

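Liver gene expression was compared between 6 rats killed 24 h after 1500 mg/kg of acetaminophen and 6 rats killed 24 h after vehicle. These 12 rats are all animals of those 2 groups, among 72 in the study, and were found by joining the rat number in the labels to a deposited key of times and doses. All were male F344/N rats, an inbred strain, 10-12 weeks old. Dosed and vehicle rats alike were given their dose by oral gavage, split into 2 portions, in 0.5% ethyl cellulose. Vehicle rats had the same treatment with 0 mg/kg of drug. RNA came from a piece of the left lobe of each liver, so that 1 lobe stands for the organ. Each rat's RNA was hybridised on 2 two-colour arrays, in both dye orientations, against a pool in which RNA of 6 vehicle rats killed at that time was mixed. Other groups used below are the 6 rats given 2000 mg/kg and killed at 24 h, and the 1500 mg/kg and vehicle rats, 6 in each group, killed at 3 and 6 h.

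Acetaminophen is an analgesic that hepatocytes mostly conjugate to glucuronate and sulfate, while cytochromes P450 oxidise a part of it to a reactive quinone imine. The quinone imine is trapped by glutathione, and once glutathione runs low it binds proteins. High doses injure first the pericentral hepatocytes, which hold most of the oxidising enzymes. Cells answer such electrophiles through the transcription factor NRF2, which drives antioxidant enzymes, through the heat shock factor, which drives chaperones, and through the eIF2-ATF4 pathway, called the integrated stress response.

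A rat's value below is the log2 ratio of its RNA to the vehicle pool, averaged over its 2 arrays. A difference is the mean of the 6 dosed rats minus that of the 6 vehicle rats, with its SE, on the log2 scale. The deposited values were taken as log10 ratios of Cy5 over Cy3, although neither base nor direction is given in the sources used here. Another base would scale every difference by 1 factor, and the direction rests on drug-responsive genes such as Mt2A and Nqo1 being higher after dosing. The direction of those genes is therefore a premise below and not a result. Tests ran over 18978 gene rows, each a gene symbol or a probe without a single symbol, with limma's moderated test and Benjamini-Hochberg adjustment at 0.05. "Rose" and "fell" are used for rows past that threshold. The spread was shared by the study's 12 groups, and counts of the main comparison are also given for a fit to the 2 groups alone. The number of rats limits the precision.

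Livers of the dosed rats were not alike, and this bears on every result. Over the 2242 rows that were higher at 2000 mg/kg, rats 0504 and 5389 had medians of 0.14 and 0.21 above the vehicle mean, against 0.49 in rat 9398, 0.58 in rat 7075, 0.66 in rat 8194 and 0.66 in rat 9537. Vehicle rats lay between -0.08 and 0.04. The 2000 mg/kg rats share the vehicle rats with this comparison, so these medians are a description. After the mean dye effect was removed, the 2 arrays of dosed rat 5389 had a correlation of 0.013 over probes and those of vehicle rat 0685 one of 0.036, against 0.38 to 0.67 in the other dosed rats. In the other vehicle rats it was 0.38 in rat 1457 and 0.05 to 0.14 in the rest. Vehicle rats are set against a pool of vehicle rats, so in them this correlation cannot separate small differences from poor arrays. Both arrays of vehicle rats 7375 and 7393 and of dosed rats 8194, 9398 and 9537 share 500 blank probes with arrays of other rats, while those of the other 7 rats do not. The labels do not name this as a batch. Within the 7 rats without these blanks (3 dosed, 4 vehicle) 6 rows passed, and within the 5 rats with them (3 dosed, 2 vehicle) 309 passed. Both fits also took their spread from the 2000 mg/kg rats at 24 h of the same blank status. Hepatocyte markers were measured in all livers. Of 7, 0 rose and 0 fell (1 had an unadjusted p under 0.05), with 0 calls in the 2 groups alone and 2 without rat 0504, and their median was -0.11 to 0.35 in single dosed rats and -0.32 to 0.11 in vehicle rats. Ratios to a pool give no absolute level for any gene.

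Dosing changed 4083 rows, 21.5% of those tested. Of these, 1927 rose (10.2%) and 2156 fell (11.4%). Among them 246 rose and 243 fell by more than 2-fold. In the fit to the 2 groups alone 662 rose (3.49%) and 744 fell (3.92%), and 1375 of the 4083 were among them. The dosed rats varied more than the vehicle rats. In the 4083 rows the median SD was 0.35 in dosed and 0.17 in vehicle rats, and 3532 rows had the larger SD in dosed rats, so the shared spread makes the SE of the dosed group too small. All 6 dosed rats lay above all vehicle rats in 367 rows (1.93%) and below them in 445 (2.34%). Of the 6 dosed rats, rat 0504 had moved least in the direction of the change in 2026 of the 4083 rows and rat 5389 in 1415, and rat 9537 had moved most in 1846. Without rat 0504 the count was 5078, and 3968 of the 4083 passed there too. It was 4517 without rat 5389, 3636 without vehicle rat 0685 and 3108 without rat 9537.

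Among symbols with separate groups, the largest rise was in A2m, which encodes the protease inhibitor and acute phase protein alpha-2-macroglobulin. Its ratio was 2.81 to 6.09 (median 4.48) in dosed rats and -0.36 to 0.31 (median -0.14) in vehicle rats. The difference of 4.41 ± 0.53, adjusted p = 3.16e-09, was 21.3-fold, and rat 0504 stood at 4.44. Akr7a3, an aldehyde reductase, ranged from 2.76 to 4.16 in dosed and -0.66 to 0.41 in vehicle rats, a difference of 3.41 ± 0.22. The 12 largest rises also held the metallothionein Mt2A, the chaperones Hspa1a and Hsp90aa1, the proteasome-associated zinc finger gene Zfand2a, the serine synthesis enzyme Phgdh and the cationic amino acid carrier Slc7a1. Nol3, an inhibitor of cell death, differed by 2.05 ± 0.26 and Csmd1, a large membrane protein with complement-like domains, by 2.95 ± 0.31. Zfand2a was at 0.54 and 0.86 in rats 0504 and 5389 and at 3.55, 4.42, 3.90 and 4.44 in rats 7075, 8194, 9398 and 9537, against -0.16 to 0.26 in vehicle rats.

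The largest fall was in Stac3, known in muscle for coupling calcium channels to contraction. Its ratio was -5.05 to -1.13 (median -4.27) in dosed rats and -0.06 to 0.88 (median 0.52) in vehicle rats, a difference of -4.02 ± 0.39, adjusted p = 4.28e-12. Nrep differed by -3.42 ± 0.44, the carbonic anhydrase gene Car7 by -3.04 ± 0.33 and Sez6, studied mainly in neurons, by -2.97 ± 0.36. Avpr1a, the hepatocyte receptor for vasopressin, ranged from -3.74 to -0.53 in dosed and from 0.07 to 0.49 in vehicle rats, and the upper end of the dosed range was held by rats 0504 and 5389. Bmf, a pro-apoptotic member of the BCL2 family, differed by -2.43 ± 0.32, the flavin monooxygenase Fmo1 by -2.02 ± 0.31 and the ubiquitin-like gene Ubd by -1.97 ± 0.24. The fatty acid desaturases Fads1 and Fads2 and fatty acid synthase Fasn and Kynu of tryptophan breakdown complete the 12 and are described with their pathways.

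**Figure D1:**
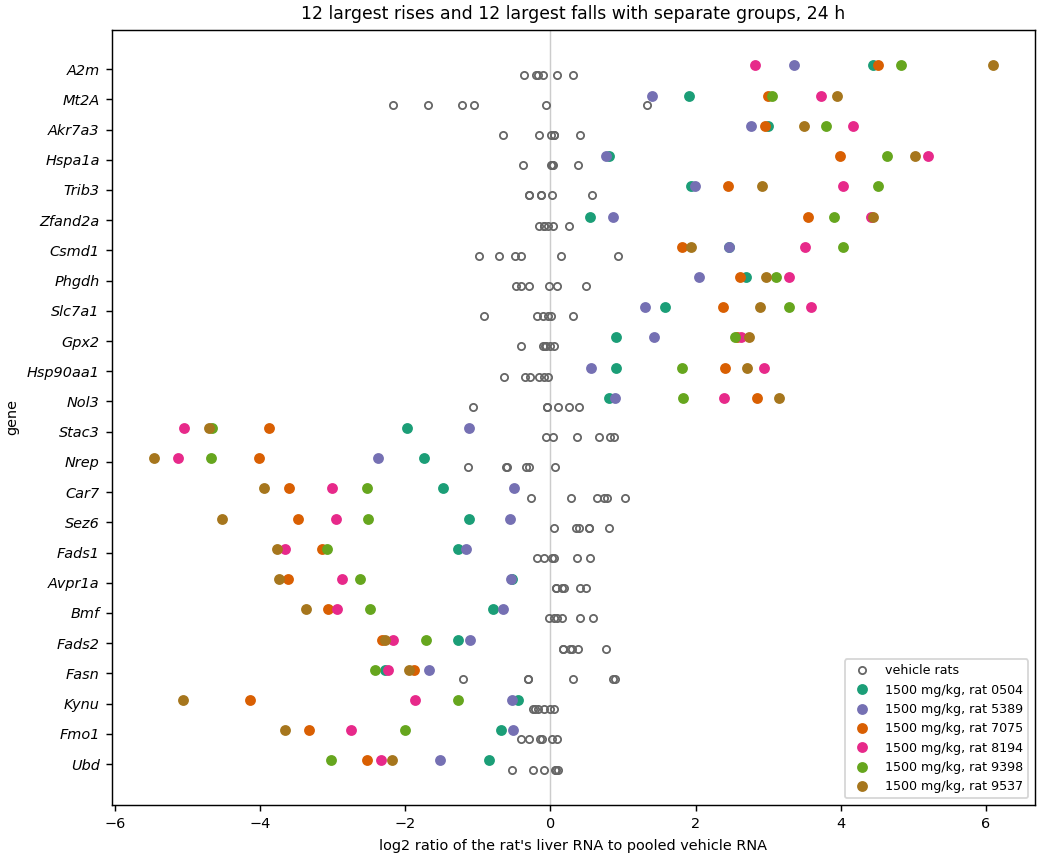
Log2 ratio of each rat's liver RNA to the vehicle pool (horizontal axis) for the 12 largest rises and 12 largest falls among genes whose dosed and vehicle rats do not overlap (vertical axis); open circles are vehicle rats and filled circles dosed rats, 1 colour per rat. Rats 0504 and 5389 lie closest to the vehicle rats for most genes, but not for A2m, where rat 0504 stands at 4.44, or Fasn, where it stands at -2.28.

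The 6 dosed livers differed from each other gene by gene, and some genes were chosen after their values were seen to show how. Phgdh was above its vehicle range in every liver, with 2.70 and 2.04 in rats 0504 and 5389 and 2.61, 3.29, 3.11 and 2.97 in rats 7075, 8194, 9398 and 9537, the order used from here on. Nqo1, a quinone reductase, stood at 1.63, 1.40, 1.33, 2.14, 2.04 and 1.58 in the 6 rats in that order. By contrast Egr1, an immediate early transcription factor, was at 0.64 and 0.46 in the first 2 rats, inside the vehicle range of -0.46 to 0.82, and at 3.84, 4.16, 5.36 and 5.03 in the other 4. Hmox1, which breaks down heme, was likewise within its vehicle range of -0.09 to 0.63 in rats 0504 and 5389, at -0.08 and 0.22, and stood at 3.09, 3.65, 2.70 and 3.79 in the rest.

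A further group of genes was furthest from vehicle in rats 7075 and 9537. The monocyte chemoattractant Ccl2 was at 5.27 and 6.13 there, at 3.25 in rat 8194, at 0.52 in rat 9398 and at -0.24 and -0.32 in rats 0504 and 5389. Baat, which conjugates bile acids, was at -2.15 and -2.10 in rats 7075 and 9537 and between -0.91 and 0.15 in the other 4. The hormone gene Fgf21 was instead highest in the other pair, with 2.99 and 3.40 in rats 8194 and 9398 and 0.43, 0.34, 0.51 and 0.80 in rats 0504, 5389, 7075 and 9537. Squalene epoxidase Sqle was below its vehicle range of -0.86 to 0.33 in 4 rats, 2 of them rats 0504 and 5389, but stood at 0.05 and 0.60 in rats 7075 and 9537. Its fall of 1.05 ± 0.30 did not pass without rat 9398 (adjusted p = 0.0527), and the rise of Ccl2 did not pass without rat 7075 (adjusted p = 0.0591) or rat 9537 (adjusted p = 0.0789). Of the 4 rats, 8194, 9398 and 9537 share the blank probes and 7075 does not.

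**Figure D2:**
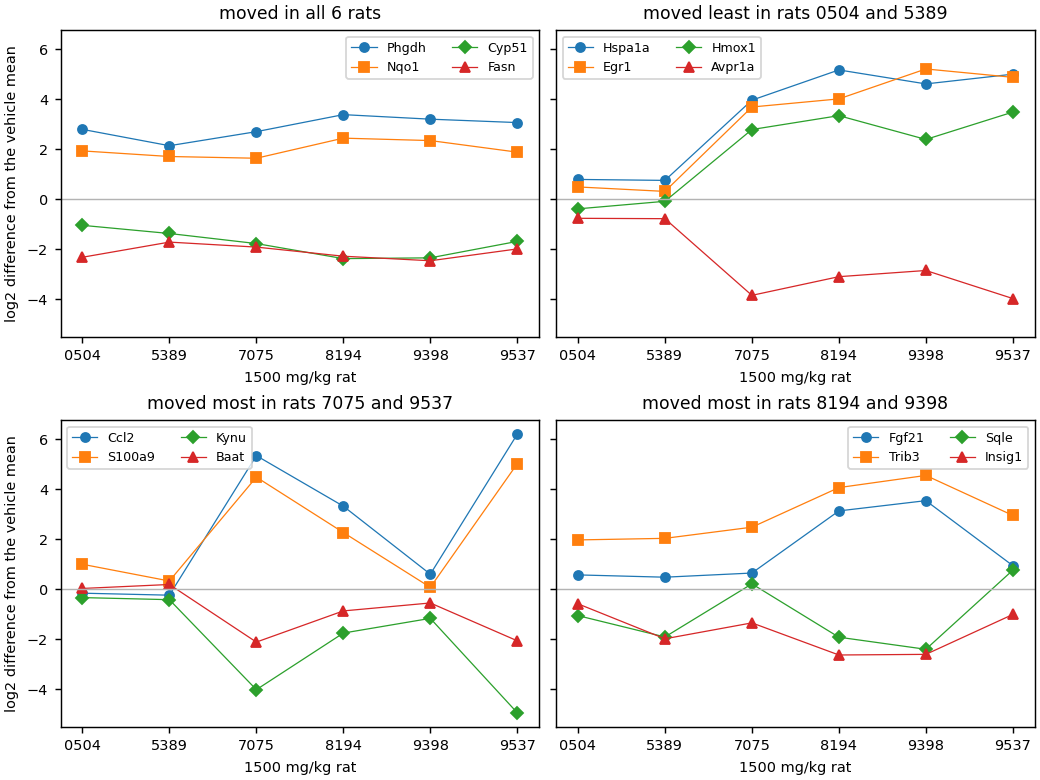
Log2 difference of each 1500 mg/kg rat from the mean of the vehicle rats (vertical axis) by rat (horizontal axis), for 16 genes in 4 panels picked after their values were seen; lines only join the points of a gene. Phgdh and Nqo1 are high in all 6 rats, Egr1 and Hmox1 in 4 of them, and Ccl2 is highest in rats 9537 and 7075.

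Medians of whole gene lists followed the same lines. Cholesterol synthesis had medians of -0.73, -0.85, -1.16, -1.61, -1.45 and -0.97 in the 6 dosed rats, all below the vehicle range of -0.15 to 0.10. Immediate early genes had -0.02 and 0.01 in rats 0504 and 5389, within the vehicle range of -0.21 to 0.13, and 1.62, 1.07, 0.78 and 1.58 in the other 4. Bile acid synthesis had -1.41 and -1.66 in rats 7075 and 9537 and -0.02, 0.15, -0.36 and -0.02 in rats 0504, 5389, 8194 and 9398. Fatty acid oxidation had -0.79 and -0.87 in the same pair and -0.02, 0.21, -0.10 and 0.11 in the other 4. Neutrophil markers were at 1.755 and 1.21 in this pair, against 0.12, 0.20, 0.22 and 0.02 elsewhere, and monocyte markers at 0.69 and 0.92 against 0.16, -0.27, -0.18 and -0.05, so both moved together with these metabolic lists. The part of these cells in those results was not tested. Within the rats without the shared blanks and within those with them, the median difference was -0.90 and -1.29 for cholesterol synthesis, 0.72 and 1.16 for NRF2 targets and 0.52 and 1.06 for cytosolic chaperones. Rats 0504 and 5389 are both in the first set.

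**Figure D3:**
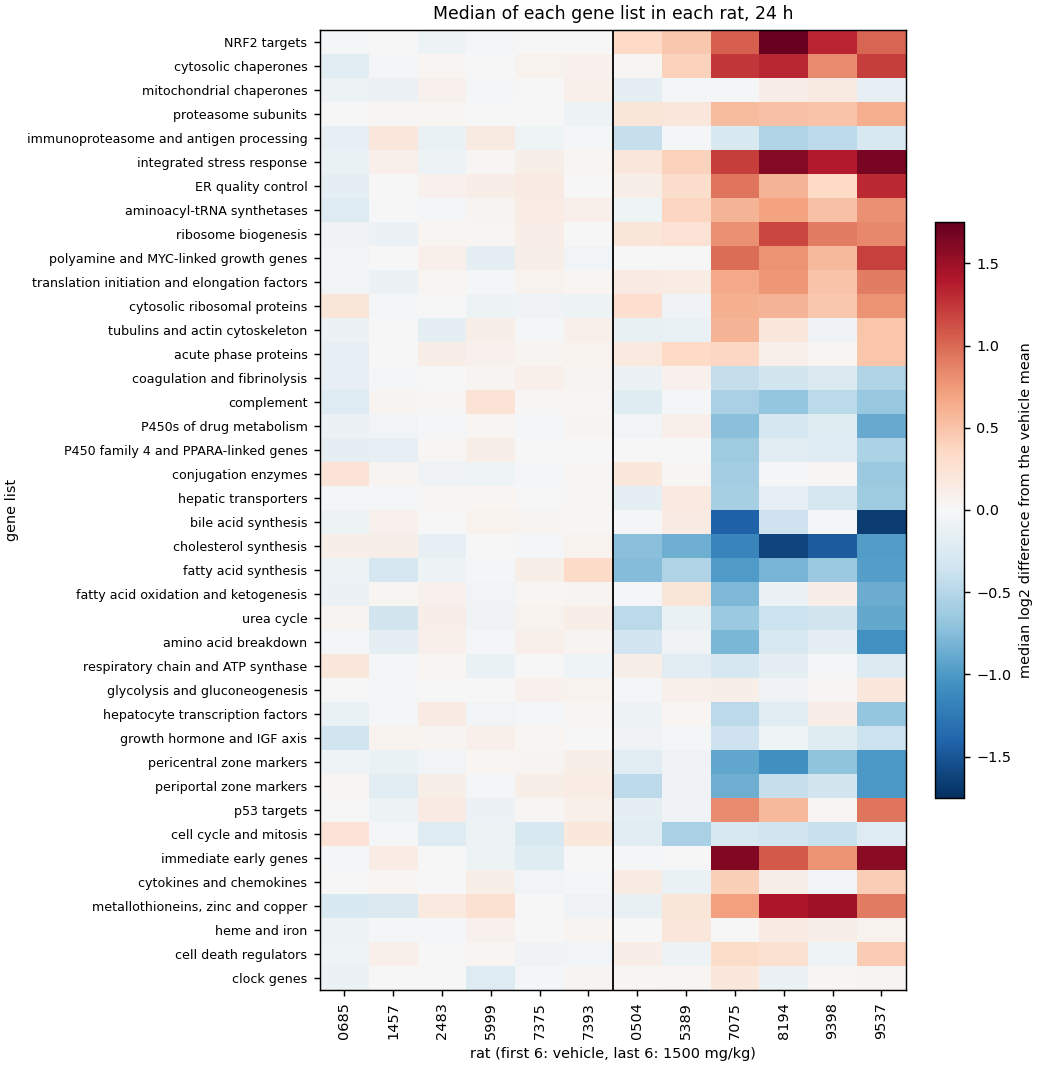
Median log2 difference from the vehicle mean (colour) of each of 40 gene lists (rows) in the 6 vehicle rats and the 6 dosed rats (columns, named by rat number). Cholesterol synthesis is blue in all 6 dosed rats, while immediate early genes are red in 4 and bile acid synthesis is deep blue in rats 7075 and 9537.

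NRF2 targets, which restore glutathione and clear electrophiles, were among the lists with most rises. Of 29 measured, 24 rose and 0 fell (median log2 difference 1.02), beside a median of -0.01 over all rows. In the 2 groups alone the counts were 17 and 0, and the medians of single dosed rats ran from 0.35 to 1.73, above the vehicle range of -0.09 to 0.01. Counts of this list and those below stand beside shares of 10.2% risen and 11.4% fallen over all rows. Those shares were 3.49% and 3.92% in the 2 groups alone. Gpx2, a glutathione peroxidase known from the gut epithelium, was at 0.90 to 2.73 (median 2.56) in dosed and -0.40 to 0.05 (median -0.06) in vehicle rats, a difference of 2.23 ± 0.18. Gclm, the modifier subunit of the enzyme that starts glutathione synthesis, differed by 1.82 ± 0.20, adjusted p = 1.79e-10. Supply of cystine for that synthesis runs through Slc7a11, which differed by 1.39 ± 0.24. Gsr, which regenerates reduced glutathione, differed by 1.10 ± 0.23 and Txnrd1, which does the same for thioredoxin, by 1.64 ± 0.26. The glutathione transferases Gsta3 and Gstp1 rose by 1.46 ± 0.20 and by 1.46 ± 0.21, and the ferritin light chain Ftl1 by 1.13 ± 0.16. The NADPH-forming enzymes did not pass, with Me1 at 0.41 ± 0.21, Tkt at 0.25 ± 0.13 and Taldo1 at 0.22 ± 0.11. Hmox1 rose by 1.93 ± 0.50 but had adjusted p = 0.0959 in the 2 groups alone.

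RefSeq promoters of build GRCr8, which need not be the build of the array design, are shown for 5 genes of the stress lists. They were picked among the named genes because they hold the motif searched for, and each is the 250 bases before the gene's start, 5′ to 3′ on the gene's strand, with matches on either strand in capitals. A match describes the letters and is no evidence of binding. Gpx2 (chr6:101230034-101230283, minus strand) holds 1 antioxidant response element, TGACNNNGC, the sequence that NRF2 is known to bind, in its reverse complement and beginning 13 bases before the start.
Gpx2: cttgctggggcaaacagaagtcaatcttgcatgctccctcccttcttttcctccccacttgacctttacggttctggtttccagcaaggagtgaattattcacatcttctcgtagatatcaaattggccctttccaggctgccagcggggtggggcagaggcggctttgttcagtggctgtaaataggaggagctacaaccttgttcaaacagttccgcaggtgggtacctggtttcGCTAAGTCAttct
Of the 24 NRF2 targets with a promoter in the table, 6 (25%) held this motif in the window, beside 10.2% of all 27457 promoters. Akr7a3 and Nqo1 had no match in this window.

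Chaperones, which refold damaged proteins, were higher after dosing, less so in rats 0504 and 5389 than in the other 4. Of 26 cytosolic chaperones, 23 rose and 0 fell (median log2 difference 0.79), and 13 and 0 did in the 2 groups alone. Single rats had list medians of 0.02, 0.41, 1.23, 1.33, 0.82 and 1.21. Hspa1a, the inducible HSP70, was at 0.81, 0.77, 3.98, 5.19, 4.63 and 5.02, against -0.38 to 0.39 in vehicle rats. It was thus above every vehicle rat in all 6, at a difference of 3.39 ± 0.58, adjusted p = 6.71e-06. The inducible HSP90 gene Hsp90aa1 rose by 2.15 ± 0.27, the constitutive HSP70 Hspa8 by 1.49 ± 0.21, the HSP110 gene Hsph1 by 1.64 ± 0.26 and the cochaperones Dnajb1 and Bag3 by 1.72 ± 0.31 and by 1.82 ± 0.35. Subunits of the CCT ring, which folds actin and tubulin, rose as well, by 0.99 ± 0.12 for Cct6a, by 0.74 ± 0.09 for Tcp1 and by 0.85 ± 0.12 for Cct5. Bag3 had adjusted p = 0.0545 in the 2 groups alone. Of 7 mitochondrial chaperones, 3 rose and 2 fell (median log2 difference -0.02), with the HSP60 gene Hspd1 at 1.40 ± 0.23 (adjusted p = 0.0564 in the 2 groups alone).
The promoter of Hspa8 (chr8:50080264-50080513, plus strand) holds 2 heat shock elements, GAANNTTC, beginning 213 and 50 bases before the start.
Hspa8: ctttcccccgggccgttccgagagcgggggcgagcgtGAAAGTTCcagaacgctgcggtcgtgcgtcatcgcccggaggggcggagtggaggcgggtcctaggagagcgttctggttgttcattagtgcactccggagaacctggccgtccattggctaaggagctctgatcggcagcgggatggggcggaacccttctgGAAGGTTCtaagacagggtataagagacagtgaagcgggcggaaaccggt
This motif was in 8 of 22 chaperone promoters (36.4%) and in 7.02% of all promoters, and Hspa1a had no match in this window.

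Proteasome subunits, which degrade tagged proteins, mostly rose by small amounts. Of 32, 22 rose and 1 fell (median log2 difference 0.44), and 14 and 1 in the 2 groups alone. The ATPase subunit Psmc5 rose by 0.66 ± 0.07 (adjusted p = 2.78e-10), Psma5 of the catalytic core by 0.73 ± 0.10 and Psmd6 of the regulatory lid by 0.58 ± 0.08, while the assembly factor Psmd9 differed by -0.40 ± 0.07. Of the interferon-inducible immunoproteasome, the subunits Psmb9 and Psmb8 differed by -0.90 ± 0.15 and -0.74 ± 0.13, and of 9 immunoproteasome and antigen processing genes 1 rose and 3 fell (median log2 difference -0.28), with 0 and 2 in the 2 groups alone.

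Genes of the integrated stress response, which cells switch on through ATF4 when amino acids or protein folding fail, were higher in the dosed livers. Of 25, 19 rose and 0 fell (median log2 difference 1.23), with 10 and 0 in the 2 groups alone, and the medians of single rats were 0.20, 0.40, 1.21, 1.61, 1.39 and 1.66. Trib3, a pseudokinase induced by ATF4, was at 1.93, 1.995, 2.44, 4.03, 4.51 and 2.91 in dosed rats and at -0.30 to 0.58 in vehicle rats, a difference of 3.02 ± 0.34. All dosed rats were above all vehicle rats, and rats 8194 and 9398 were highest. Phgdh, first enzyme of serine synthesis, differed by 2.89 ± 0.27, adjusted p = 1.35e-12. Mthfd2 of mitochondrial folate metabolism rose by 1.45 ± 0.24 and asparagine synthetase Asns by 1.15 ± 0.24. Among amino acid carriers, Slc7a1 for arginine and lysine rose by 2.66 ± 0.33, and Slc7a5 and Slc3a2, which pair to import leucine, by 1.30 ± 0.20 and by 1.34 ± 0.22. Atf4 itself rose by 1.21 ± 0.21, and its partners Atf3 and Ddit3 by 2.92 ± 0.65 and by 1.26 ± 0.32. Atf3 (adjusted p = 0.057), Ddit3 (adjusted p = 0.0819) and Fgf21 (adjusted p = 0.0963) did not pass in the 2 groups alone.
The promoter of Trib3 (chr3:161275534-161275783, minus strand) holds 1 CCAAT-enhancer and ATF response element, TGATGNAA, in its reverse complement, beginning 21 bases before the start.
Trib3: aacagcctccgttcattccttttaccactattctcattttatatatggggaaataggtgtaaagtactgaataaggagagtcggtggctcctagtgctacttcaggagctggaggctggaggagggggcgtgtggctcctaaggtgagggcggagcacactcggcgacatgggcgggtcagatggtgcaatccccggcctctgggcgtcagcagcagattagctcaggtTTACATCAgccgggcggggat
It was found in 5 of 24 promoters of the list (20.8%) and in 3.27% of all promoters.

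Genes that join amino acids to their tRNAs, which ATF4 is also known to induce, gave 11 rises and 0 falls among 15 (median 0.41, and 3 and 0 in the 2 groups alone). Yars1 rose by 1.07 ± 0.13 and Iars1 by 0.92 ± 0.14. Of 15 genes of quality control in the endoplasmic reticulum, 9 rose and 0 fell (median log2 difference 0.60), with 3 and 0 in the 2 groups alone. Hsp90b1, the HSP90 of that compartment, rose by 0.90 ± 0.15 and the HSP70 Hspa5 by 0.96 ± 0.17 (adjusted p = 0.0632 in the 2 groups alone).

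Metallothioneins bind zinc and copper and scavenge radicals. Mt2A was at 1.40 to 3.95 (median 3.03) in dosed and -2.17 to 1.34 (median -1.14) in vehicle rats, a difference of 3.65 ± 0.48, adjusted p = 3.44e-08. The groups were apart, but the vehicle rats themselves spanned a wide range, highest in rat 2483. Mt1 differed by 2.88 ± 0.42 and Mt3 by 2.03 ± 0.37. For Mt1, 5 dosed rats were between 1.61 and 2.83 and rat 5389 was at -0.49, inside the vehicle range of -2.12 to -0.32. Of 7 genes of zinc and copper handling, 4 rose and 0 fell (median log2 difference 1.04), and 3 and 0 in the 2 groups alone. Of 18 heme and iron genes, 6 rose and 3 fell (median log2 difference 0.09), and 2 and 1 in the 2 groups alone.
Promoters of Mt2A (chr19:10838709-10838958) and Mt1 (chr19:10832976-10833225), both on the minus strand and next to each other on chromosome 19, hold 4 and 6 metal response elements, TGCACNC or TGCGCNC, the core known to bind the zinc-sensing factor MTF1.
Mt2A: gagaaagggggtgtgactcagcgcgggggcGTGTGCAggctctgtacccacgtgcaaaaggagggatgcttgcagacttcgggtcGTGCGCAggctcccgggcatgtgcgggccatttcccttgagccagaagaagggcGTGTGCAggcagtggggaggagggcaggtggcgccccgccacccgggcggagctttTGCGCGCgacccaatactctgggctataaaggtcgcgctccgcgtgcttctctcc
Mt1: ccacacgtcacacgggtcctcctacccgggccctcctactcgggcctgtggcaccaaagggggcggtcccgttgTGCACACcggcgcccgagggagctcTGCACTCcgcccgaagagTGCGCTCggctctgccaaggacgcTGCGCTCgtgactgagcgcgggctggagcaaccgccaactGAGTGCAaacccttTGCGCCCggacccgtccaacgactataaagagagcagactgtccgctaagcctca
The motif was in 4 of 6 promoters of the list (66.7%) and in 21.2% of all promoters.

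Genes for making ribosomes and proteins mostly rose, while more genes of the cell cycle fell than rose. Of 24 ribosome biogenesis genes, 17 rose and 1 fell (median log2 difference 0.67), with 13 and 0 in the 2 groups alone. Nop56, a core protein of the particles that methylate ribosomal RNA, was at 0.21 to 2.68 (median 1.94) in dosed and -0.19 to 0.15 (median -0.04) in vehicle rats and rose by 1.60 ± 0.22. Nucleophosmin Npm1 rose by 1.27 ± 0.18 and Bysl, needed for the small subunit, by 0.93 ± 0.13. Of 28 translation factors, 23 rose and 0 fell (median log2 difference 0.49), among them the helicase Eif4a1 by 0.96 ± 0.14, but the translation inhibitor Eif4ebp1 rose too, by 0.72 ± 0.11. Of 30 ribosomal proteins, 18 rose and 0 fell (median log2 difference 0.45), with Rpl6 at 0.79 ± 0.10 and Rps6 at 0.68 ± 0.09. In the 2 groups alone the translation factors gave 12 and 0 and the ribosomal proteins 9 and 0. The list median of the ribosomal proteins was -0.06 in rat 5389, inside the vehicle range of -0.09 to 0.21. It was 0.30 to 0.79 in the other dosed rats.

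The transcription factor gene Myc, known to drive ribosome production, rose by 2.17 ± 0.40 (adjusted p = 2.33e-05). It stood at 0.28, 0.87, 2.56, 2.45, 3.25 and 2.38 in the dosed rats, so that rat 0504 lay inside the vehicle range of -0.92 to 0.46. Srm, which makes spermidine, rose by 1.28 ± 0.15 and Odc1, which makes its precursor putrescine, by 0.92 ± 0.15 (adjusted p = 0.0683 in the 2 groups alone). Of 12 polyamine and MYC-linked genes, 6 rose and 1 fell (median log2 difference 0.48), and 4 and 0 in the 2 groups alone.

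Of 36 cell cycle genes, 2 rose and 14 fell (median log2 difference -0.31), with 0 and 10 in the 2 groups alone. Single dosed rats had list medians of -0.20, -0.57, -0.28, -0.35, -0.40 and -0.23, against -0.276 to 0.253 in vehicle rats. Rats 0504 and 9537 thus lay inside the vehicle range. The mitotic kinase genes Plk1 and Cdk1 differed by -1.28 ± 0.26 and -1.82 ± 0.33, Birc5 of the chromosomal passenger complex by -1.15 ± 0.19 and the proliferation marker Mki67 by -1.55 ± 0.33. Plk1 stood at -1.14, -1.82, -1.64, -1.54, -1.36 and -1.24 in the dosed rats and at -0.93 to 0.84 in vehicle rats. Birc5 stood at -1.13 to -0.67 in dosed rats, the smallest SD among called symbols that differed by more than 1 on this scale. Rat 0504 was the least low in both genes, while rat 5389 was the lowest in Plk1. No dosed rat overlapped the vehicle rats in either.

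Genes of lipid synthesis, most of them driven by the SREBP transcription factors, had list medians below the vehicle range in all 6 dosed rats, though single genes did not always follow. Of 20 cholesterol synthesis genes, 0 rose and 17 fell (median log2 difference -1.09), and 0 and 14 in the 2 groups alone. All dosed rats lay below all vehicle rats in 13 of the 20, beside 2.34% of all rows. Lanosterol demethylase Cyp51 was at -1.14, -1.47, -1.87, -2.47, -2.44 and -1.78 in the dosed rats and at -0.46 to 0.10 in vehicle rats, a difference of -1.77 ± 0.14, adjusted p = 6.32e-16. Pmvk of the mevalonate pathway differed by -1.67 ± 0.14, the isomerases Idi1 and Ebp by -1.53 ± 0.16 and -1.21 ± 0.11 and Acat2, which makes the first intermediate, by -1.37 ± 0.12. Insig1, itself a sterol-regulated brake on the pathway, differed by -1.69 ± 0.35 (adjusted p = 0.0535 in the 2 groups alone), and Sqle had adjusted p = 0.233 there.

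Of 16 fatty acid synthesis genes tested, 0 rose and 12 fell (median log2 difference -0.67), with 0 and 8 in the 2 groups alone. In 6 of the 16 all dosed rats lay below all vehicle rats, beside 2.34% of all rows. Fatty acid synthase Fasn was at -2.28, -1.67, -1.87, -2.24, -2.42 and -1.95 in the dosed rats and -1.20 to 0.90 in vehicle rats, a difference of -2.12 ± 0.33. Its dosed values were close to each other and its vehicle values wide. The desaturases Fads1 and Fads2, which make polyunsaturated fatty acids, differed by -2.80 ± 0.26 and -2.16 ± 0.16. ATP citrate lyase Acly, which supplies acetyl groups for fatty acid synthesis, differed by -1.92 ± 0.26.

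**Figure D4:**
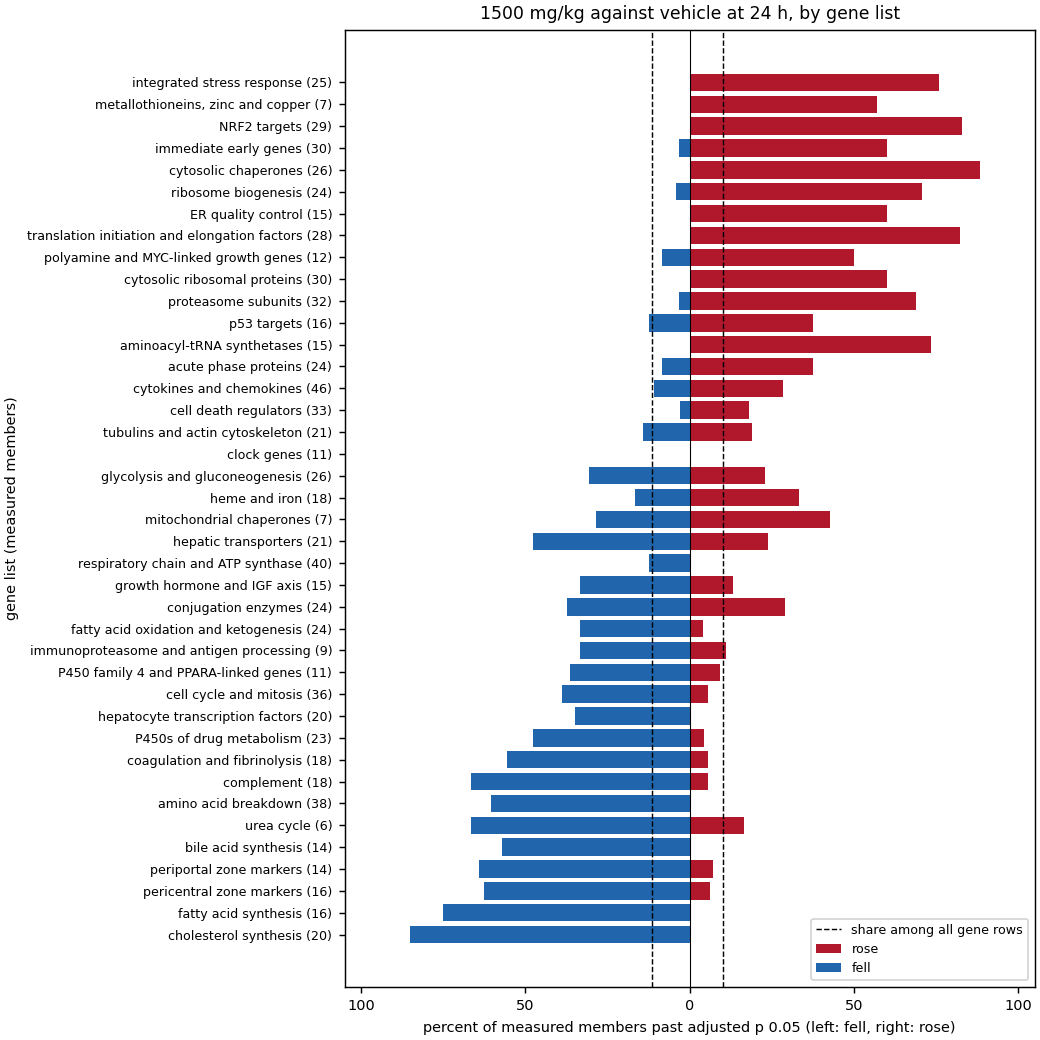
Percent of the measured members of 40 gene lists (vertical axis, number of members in brackets) that rose (right) or fell (left) at 1500 mg/kg against vehicle at 24 h; dashed lines give the shares among all gene rows, 10.2% and 11.4%. Cytosolic chaperones and NRF2 targets hold only rises and cholesterol synthesis only falls, past the threshold.

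Drug metabolism genes moved in both directions. Of 23 P450 and partner genes, 1 rose and 11 fell (median log2 difference -0.35), and 0 and 4 in the 2 groups alone. Cyp2c11, the main male-specific P450 of rat liver, was at -2.54 to -0.61 (median -1.68) in dosed and 0.08 to 0.44 (median 0.16) in vehicle rats and differed by -1.90 ± 0.19, adjusted p = 1.3e-11. Cyp3a2 was at -0.08 and -0.66 in rats 0504 and 5389, against -0.45 to 0.54 in vehicle rats, and at -3.70, -3.24, -2.26 and -3.97 in the other 4 (adjusted p = 0.0531 in the 2 groups alone). Cyp2f4 differed by -0.95 ± 0.14 and Cyp1a2 by -1.29 ± 0.29 (adjusted p = 0.0546 in the 2 groups alone). Cyp2e1, the P450 best known for oxidising acetaminophen, did not pass, at 0.36 ± 0.20, adjusted p = 0.198. It stood at 0.75, 1.30, -0.22, 0.76, 1.24 and -0.07 in the dosed rats and 0.02 to 0.51 in vehicle rats, below every vehicle rat in rats 7075 and 9537 and above every vehicle rat in the other 4. The P450 reductase Por rose by 0.75 ± 0.18 (adjusted p = 0.0519 in the 2 groups alone). Of 11 P450 family 4 and PPARA-linked genes, 1 rose and 4 fell (median log2 difference -0.31), and 0 and 0 in the 2 groups alone.

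Conjugation enzymes split as well. Of 24, 7 rose and 9 fell (median log2 difference -0.20), with 6 and 3 in the 2 groups alone. The rises included Gsta3 and Gstp1, while the sulfotransferase Sult1c3 differed by -1.71 ± 0.26 and the transferase Gstm7 by -1.14 ± 0.18. Of 21 transporters, 5 rose and 10 fell (median log2 difference -0.08), and 3 and 4 in the 2 groups alone. Among uptake carriers at the blood side, the organic anion carriers Slc22a7 and Slco1a1 differed by -0.78 ± 0.10 and -1.22 ± 0.19 and the bile acid carrier Slc10a1 by -1.06 ± 0.22 (adjusted p = 0.117 in the 2 groups alone). Export pumps went both ways. The bile salt pump Abcb11 fell by 0.59 ± 0.09, the xenobiotic exporter Abcg2 by 0.59 ± 0.15 and Abcc6, which supports ATP release from hepatocytes, by 0.83 ± 0.14 (adjusted p = 0.0511 in the 2 groups alone). The P-glycoprotein gene Abcb1a rose by 1.77 ± 0.35, Abcc3, which returns conjugates to the blood, by 0.86 ± 0.19 and the sterol exporter Abcg5 by 1.58 ± 0.28.

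Of 14 bile acid synthesis genes, 0 rose and 8 fell (median log2 difference -0.51), and 0 and 2 in the 2 groups alone. Slc27a5, which activates bile acids for conjugation, fell by 1.33 ± 0.19. Nr0b2, a nuclear receptor that represses bile acid synthesis, fell by 2.13 ± 0.45 (adjusted p = 0.0653 in the 2 groups alone), and Baat had adjusted p = 0.173 there.

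Hepatocytes differ along the lobule, and markers of both ends were lower. Of 16 pericentral markers, 1 rose and 10 fell (median log2 difference -0.66), and of 14 periportal markers 1 rose and 9 fell (median log2 difference -0.52). In the 2 groups alone the counts were 1 and 4 and 1 and 3. In rat 5389 both list medians were -0.06. The vehicle ranges were -0.11 to 0.10 for pericentral and -0.18 to 0.13 for periportal markers. Glutamine synthetase Glul, found in the hepatocytes next to the central vein, was at -0.69, -0.74, -1.98, -2.02, -2.497 and -2.13 in the dosed rats and at -0.13 to 0.08 in vehicle rats, a difference of -1.70 ± 0.16, adjusted p = 2.57e-12. Gulo, the last enzyme of vitamin C synthesis, differed by -1.47 ± 0.20, but the carbonic anhydrase Car2 was higher, at 1.17 ± 0.19. RNA here is from bulk liver, in which fewer cells of a type and less RNA per cell cannot be told apart.

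Enzymes that break down amino acids were lower, most in rats 7075 and 9537. Single dosed rats had list medians of -0.34, -0.06, -0.81, -0.28, -0.17 and -1.05, against -0.18 to 0.09 in vehicle rats. Rats 5389 and 9398 thus lay inside the vehicle range. Of 38, 0 rose and 23 fell (median log2 difference -0.44), with 0 and 5 in the 2 groups alone. Ornithine aminotransferase Oat, a pericentral enzyme, was at -1.41, -0.89, -1.998, -2.15, -2.07 and -2.11 in the dosed and -0.11 to 0.30 in vehicle rats, a difference of -1.83 ± 0.19. Cdo1 of cysteine breakdown fell by 1.41 ± 0.19, serine dehydratase Sds by 1.51 ± 0.38 and Kynu by 2.11 ± 0.39. Kynu had adjusted p = 0.101 and Sds adjusted p = 0.0915 in the 2 groups alone. Of 6 urea cycle genes, 1 rose and 4 fell (median log2 difference -0.48), with 1 and 1 in the 2 groups alone. Otc of that cycle fell by 1.28 ± 0.16, and Cps1, its entry enzyme, fell by 0.54 ± 0.17, which did not pass without rat 9537 (adjusted p = 0.077) or in the 2 groups alone (adjusted p = 0.124).

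Of 24 fatty acid oxidation genes tested, 1 rose and 8 fell (median log2 difference -0.27), and 0 and 1 in the 2 groups alone. Hadh fell by 0.94 ± 0.15 and Acadm by 0.88 ± 0.15, with adjusted p = 0.0626 and adjusted p = 0.0605 in the 2 groups alone. Of 26 glycolysis and gluconeogenesis genes, 6 rose and 8 fell (median log2 difference 0.09), with 2 and 3 in the 2 groups alone. Pfkfb1, which sets the direction of the pathway, differed by -1.53 ± 0.15, adjusted p = 1.33e-11, glucose-6-phosphatase G6pc1 by -1.43 ± 0.38 (adjusted p = 0.0981 in the 2 groups alone), and Igfbp1, a fasting-responsive binding protein for growth factors, by 2.47 ± 0.52. Of 40 respiratory chain and ATP synthase genes, 0 rose and 5 fell (median log2 difference -0.13), and 0 and 0 in the 2 groups alone. The list had 10 calls without rat 0504, 8 without rat 9398 and 3 without rat 9537. Its 5 falls are near the share of 11.4% that fell over all rows.

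Secreted liver proteins did not move as a block. Of 24 acute phase proteins, 9 rose and 2 fell (median log2 difference 0.27), with 5 and 0 in the 2 groups alone. Beside A2m, the orosomucoid gene Orm1 rose by 1.37 ± 0.21 and Lbp, which presents bacterial lipopolysaccharide, by 1.89 ± 0.39 (adjusted p = 0.0833 in the 2 groups alone). Of 18 coagulation genes, 1 rose and 10 fell (median log2 difference -0.37), and of 18 complement genes 1 rose and 12 fell (median log2 difference -0.39). These were, in the 2 groups alone, 0 and 1 and 0 and 5. C6 of the membrane attack complex was at -2.32 to -0.53 (median -1.57) in dosed and -0.19 to 0.29 (median 0.18) in vehicle rats and fell by 1.58 ± 0.19. The mannose-binding lectin Mbl2 fell by 1.47 ± 0.23, coagulation factor F10 by 0.60 ± 0.13 and plasminogen, Plg, by 0.50 ± 0.11. Fitted alone, these 3 had adjusted p = 0.064, adjusted p = 0.0789 and adjusted p = 0.0594.

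Immediate early genes, transcribed within minutes of a stress signal, were higher in 4 rats. Of 30, 18 rose and 1 fell (median log2 difference 0.95), with 4 and 0 in the 2 groups alone and 12 calls in all without rat 9537. Egr1 rose by 3.10 ± 0.65 and the MAP kinase phosphatase Dusp5 by 1.60 ± 0.32. Jun and Fos, the subunits of AP-1, rose by 1.81 ± 0.45 and by 2.27 ± 0.60, with adjusted p = 0.0549 and adjusted p = 0.104 in the 2 groups alone.

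Of 46 cytokine, chemokine and receptor genes, 13 rose and 5 fell (median log2 difference 0.24), with 2 and 0 in the 2 groups alone and 11 calls without rat 7075. Tnfrsf1a, the main receptor for tumour necrosis factor, rose by 1.07 ± 0.15 (adjusted p = 6.79e-08). The chemokine Cxcl12 fell by 1.82 ± 0.31 and Ccl2 rose by 2.52 ± 0.74, with adjusted p = 0.0552 and adjusted p = 0.179 in the 2 groups alone. The matrix protease Mmp3, at 0.04, 1.36, 3.89, 2.81, 0.67 and 5.04 in the dosed rats against -0.25 to 0.16 in vehicle rats, had the order of Ccl2 in rats 7075, 8194 and 9537 (adjusted p = 0.0733 in the 2 groups alone). Of 16 p53 targets, 6 rose and 2 fell (median log2 difference 0.43), and 0 and 1 in the 2 groups alone. Mdm2, which restrains p53, rose by 0.75 ± 0.17 and the growth arrest gene Gadd45a by 1.496 ± 0.36, with adjusted p = 0.0974 and adjusted p = 0.0878 in the 2 groups alone. Of 33 cell death regulators, 6 rose and 1 fell (median log2 difference 0.20), with 2 and 1 in the 2 groups alone. The list had 11 calls without rat 0504 and 13 without rat 5389. Over all rows 10.2% rose and 11.4% fell.

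Markers of other liver cells were read beside these lists and beside shares of 10.2% risen and 11.4% fallen over all rows. Of 7 neutrophil markers, 4 rose and 0 fell (median log2 difference 0.64), and 0 and 0 in the 2 groups alone, with 1 call left without rat 7075, rat 9537 or vehicle rat 5999 and 2 without vehicle rat 0685. S100a9 was at 0.31, -0.36, 3.80, 1.58, -0.61 and 4.34 in the dosed rats and -1.51 to -0.17 in vehicle rats, highest in rats 7075 and 9537 and overlapping in rats 5389 and 9398 (adjusted p = 0.126 in the 2 groups alone). Among 12 markers of macrophages and Kupffer cells, 0 rose and 4 fell (median log2 difference -0.10, members from -0.94 to 0.62). The fallen C1qb and C1qc are complement genes too and are counted in both lists. The list's median difference was 0.03 in the rats without the shared blanks and -0.29 in those with them. Clec4f, a receptor found on Kupffer cells in rodents, was at -1.40 to -0.22 (median -0.64) in dosed and -0.11 to 0.37 (median 0.17) in vehicle rats and fell by 0.87 ± 0.14, and Cd5l, a protein secreted by them, by 0.94 ± 0.13. Among 13 markers of stellate cells and fibroblasts, 0 rose and 4 fell (median log2 difference -0.15). Lrat, which stores vitamin A in stellate cells, fell by 1.36 ± 0.21 and the growth factor receptor Pdgfrb by 0.82 ± 0.16. Myl9, the myosin light chain of smooth muscle, belongs to the actin cytoskeleton list and fell by 1.35 ± 0.12.

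Of 12 endothelial markers, 0 rose and 5 fell (median log2 difference -0.19). Emcn, a surface sialomucin, fell by 0.77 ± 0.12 and Kdr, the receptor for vascular endothelial growth factor, by 0.91 ± 0.19 (adjusted p = 0.101 in the 2 groups alone). In the 2 groups alone the macrophage, stellate and endothelial markers gave 0 and 4, 0 and 3 and 0 and 1. List medians of single dosed rats ran from -0.43 to 0.16, from -0.41 to -0.05 and from -0.34 to -0.06 in the same order, against -0.22 to 0.25, -0.07 to 0.13 and -0.04 to 0.02 in vehicle rats. The part of cell numbers in these shifts was not tested.

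The remaining lists are given beside shares of 10.2% risen and 11.4% fallen over all rows. Of 20 hepatocyte transcription factors, 0 rose and 7 fell (median log2 difference -0.33), with 3 calls without rat 7075 or rat 9537 and 4 without rat 8194. The glucocorticoid receptor Nr3c1 fell by 1.09 ± 0.15 (adjusted p = 6.79e-08). Of 15 genes of the growth hormone axis, 2 rose and 5 fell (median log2 difference -0.19), with its signal transducer Stat5a at -0.98 ± 0.13. Of 21 tubulin and actin cytoskeleton genes, 4 rose and 3 fell (median log2 difference 0.12). In the 2 groups alone these 3 lists gave 0 and 1, 2 and 2 and 1 and 2. With limma the 11 clock genes had 0 calls, in the 2 groups alone as well, and 0 had an unadjusted p under 0.05. For monocytes, T and NK cells, B and plasma cells and erythroid cells the falls were 0 of 7, 4 of 13, 2 of 4 and 1 of 4, and 1 monocyte marker rose. Monocytes had 2 calls without rat 0504, 5389 or 9398, B and plasma cells 1 without rat 9398, and erythroid cells 2 without rat 5389 and 0 without rat 8194. The 4 lists gave, in the 2 groups alone, 0 and 0, 0 and 1, 0 and 0 and 0 and 0. Bile duct markers had 0 limma calls among 6 and mesothelium markers 0 among 4, with 0 and 1 at an unadjusted p under 0.05, and 0 calls in the 2 groups alone.

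Raising the dose from 1500 to 2000 mg/kg at 24 h gave no row past the threshold. With limma 0 rows (0%) passed, 845 had an unadjusted p under 0.05 and the smallest adjusted p was 0.313. With all arrays and the rat as a random block 10 rows passed. The difference between the doses was 0.64 ± 0.58 for Hspa1a, 0.47 ± 0.22 for Akr7a3, -0.50 ± 0.14 for Cyp51 and -0.70 ± 0.39 for Stac3. The median SE of this difference was 0.15, so moderate dose effects may be missed. A missing call does not show that the doses act alike.

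The response to 1500 mg/kg was also set against that of rats killed at 6 h, which have vehicle rats of their own. At 6 h, 692 rows had risen (3.65%) and 613 had fallen (3.23%), and at 3 h 644 (3.39%) and 464 (2.44%). The difference from vehicle was higher at 24 h than at 6 h in 807 rows (4.25%) and lower in 998 (5.26%), and the counts were 303 and 440 in the groups compared alone. Livers of different times come from different rats. Akr7a3 differed from vehicle by 0.02 ± 0.22 at 3 h and 0.47 ± 0.22 at 6 h, and the change from 6 to 24 h was 2.94 ± 0.30, adjusted p = 5.3e-10. The other 4 of the 5 largest gains were below vehicle at 6 h by their means. Abcb1a went from -0.78 ± 0.35 at 6 h to 1.77 ± 0.35, Mmp3 from -0.19 ± 0.47 to 2.38 ± 0.47, the semaphorin Sema3c from -0.42 ± 0.44 to 2.16 ± 0.44 and Bhlha15, a transcription factor of secretory cells, from -1.76 ± 0.42 to 0.66 ± 0.42.

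Some genes passed from above to below vehicle. Aspartoacylase Aspa differed by 0.93 ± 0.30 at 3 h, by 1.39 ± 0.30 at 6 h and by -1.62 ± 0.30 at 24 h, a change of -3.01 ± 0.42, adjusted p = 1.13e-06, between the later times. Sds went from 2.22 ± 0.38 at 3 h and 1.06 ± 0.38 at 6 h to -1.51 ± 0.38 at 24 h, a change of -2.56 ± 0.54. Zfp354a, a zinc finger gene known from injured kidney, changed by -2.58 ± 0.61 and was -1.51 ± 0.43 from vehicle at 24 h (adjusted p = 0.135 in the 2 groups alone), and the change was -2.63 ± 0.51 in Sez6 and -2.56 ± 0.46 in Car7. At 6 h Sez6 was at -0.34 ± 0.36 and Car7 at -0.49 ± 0.33.

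Whole lists were read by the same test. Over all rows the shares were 4.25% higher and 5.26% lower at 24 h. At 6 h itself 3.65% of all rows had risen and 3.23% had fallen. Between 6 and 24 h the difference from vehicle became higher in 15 of 29 NRF2 targets, 14 of 26 cytosolic chaperones, 14 of 28 translation factors and 8 of 15 genes of quality control in the endoplasmic reticulum. Of those last genes 4 had fallen at 6 h, when Hspa5 was at -0.58 ± 0.17. It became lower in 16 of 38 amino acid breakdown genes, 5 of 6 urea cycle genes, 11 of 36 cell cycle genes and 10 of 40 respiratory chain genes. At 6 h 8 of those 40 had risen. These list counts come from the shared-spread fit. Immediate early genes had 10 rises among 30 at 6 h, and 1 of them differed between the times. Hspa1a differed by 2.65 ± 0.58 at 6 h, and its change to 24 h was 0.74 ± 0.82, adjusted p = 0.68.

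**Figure D5:**
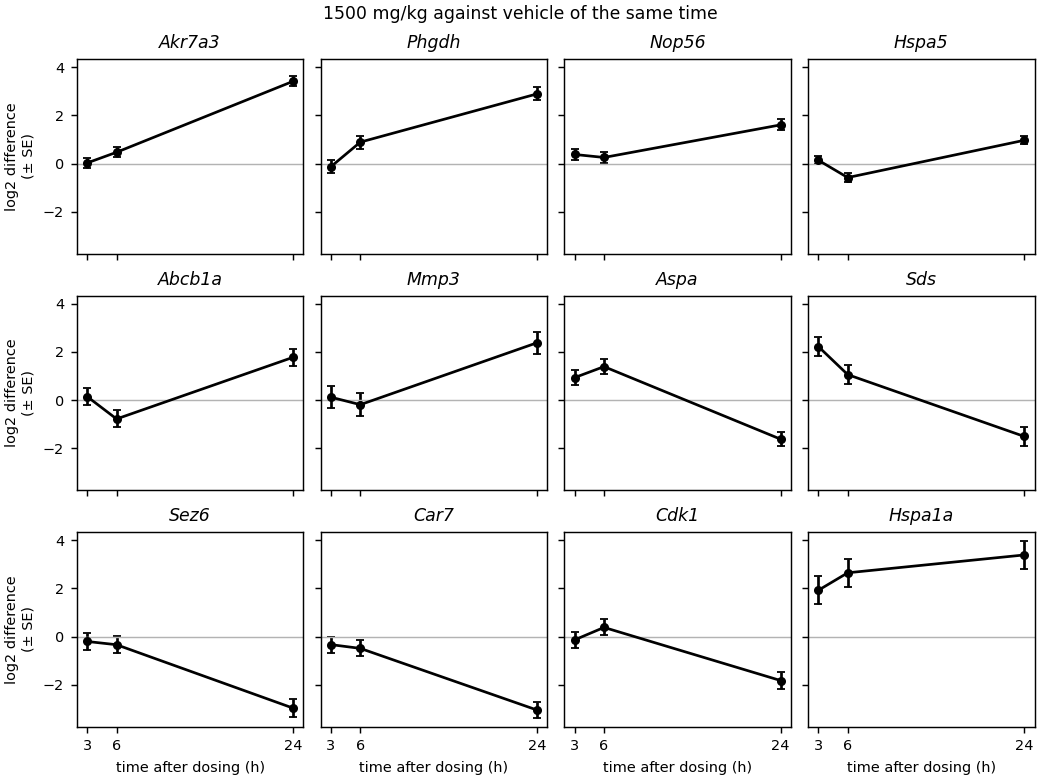
Log2 difference of 1500 mg/kg rats from vehicle rats of the same time (vertical axis, mean ± SE, 6 against 6 rats) at 3, 6 and 24 h (horizontal axis) for 12 genes. Akr7a3 is near 0 at 3 h and highest at 24 h, Sds goes from above to below 0, and Hspa1a is above 0 at all 3 times.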

How the data were processed

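RNA of 72 rat livers was measured on 144 two-colour arrays. The authors deposited log ratios of 22075 probes per array, taken here as log10, and a table that gives each rat's dose and time. Per the file's values, each array's median ratio was 0 at 24 h, and 7.61% of values were exactly 0 and 0.944% blank. How they were background-corrected and normalized was not given in the sources used here. Scanner intensities were not used here. Of the probes, 12750 had 1 gene symbol in GEO's platform annotation, 5 had several and 9320 had none, and probes of 1 symbol were averaged (2266 genes). Where Cy3 marked the rat's own RNA the sign was turned, values were converted to log2, and the 2 arrays of each rat were averaged. The dye effect cancels in this mean. Replicates are rats.

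Means of the 12 groups were fitted over 72 rats with limma 3.58.1 (R 4.3.3), and p-values were Benjamini-Hochberg adjusted over 18978 rows at 0.05. Simulated data had 200 changed rows, shared among log2 sizes of 0.5, 1 and 2. Of the rows of each size 37%, 91% and 100% were recovered, in that order, with 9 false among 161 calls. The simulated noise had the same spread in all 12 groups, unlike the wider dosed group here. These rates therefore need not hold for this comparison. Tables were made with Python 3.11.15 and pandas 2.3.3. Members and gene lists were chosen with earlier results of these data known. Named genes are the 12 largest separated rises and falls, members of each list among the 5 with the smallest p or with a well-known role, the 5 largest changes each way between 6 and 24 h and the 8 largest and 8 smallest spreads. The text names 149 of these, picked after their values were seen. Alternatives varied the arrays, centring, missing values and zeros, probe summary, random block, groups fitted, weights, blank probes, fold threshold and rats. No pair of arrays held identical values.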

Additional observations from a re-analysis of the deposited data

Results flagged for a closer look

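Of 298 groups of 6 rats tested, 2 for each named gene, 18 held a rat whose gap to its nearest neighbour exceeded 0.625 of the group's range. About 1 in 20 groups would do so by chance. In the dosed group, rat 0504 stood apart at -0.051 for Iars1, at -1.42 for Cdk1, which was lower still in the other dosed rats, and at -0.75 for Zfp354a. Rat 5389 stood apart for the metallothioneins Mt1 at -0.49 and Mt3 at -0.81.

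Among vehicle rats, rat 0685, whose arrays differed most from each other among vehicle rats, stood apart at -0.10 for Gsr, 0.060 for Slc3a2, -0.20 for Hsp90b1 and 0.32 for Aspa. Rat 1457 stood apart at 0.49 for Gclm, 0.91 for Abcg5 and 0.59 for Kdr. Rat 2483 did so at -0.40 for Gpx2 and -1.07 for Nol3, and rat 7393 at 0.77 for Fads2 and -0.13 for Glul. Rat 7375 was at 0.58 for Trib3 and rat 5999 at 1.43 for Asns.

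The response to 1500 mg/kg differed between 24 and 6 h in 1805 rows by limma's test of the difference itself. The largest changes to lower values were -3.01 in Aspa, -2.63 in Sez6, -2.58 in Zfp354a, -2.56 in Sds and -2.56 in Car7. To higher values they were 2.94 in Akr7a3, 2.58 in Sema3c, 2.56 in Mmp3, 2.56 in Abcb1a and 2.42 in Bhlha15.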

How the results depend on the processing

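No difference of a named gene changed sign under the alternatives run, but most calls did not hold in all of them. Of the 149 named genes, called or not, 5 kept the same side of the threshold throughout. Against 4083 calls, the comparison with vehicle gave 1638 with a fold of at least 1.5 and 1406 in the groups compared alone. It gave 6 in the 7 rats without the shared blank probes and 309 in the 5 rats with them. These 2 splits were added after seeing the data and test fewer rats. Their spread was also estimated from the 2000 mg/kg rats at 24 h. In the first set the calls were 5 higher and 1 lower, against 1927 and 2156 in all 12 rats. Calls of 140 of the 149 named genes were lost in the first set and of 104 in the second. Leaving out 1 rat gave 3108 to 5078 calls, and the other alternatives gave 3073 to 4672. For 2000 against 1500 mg/kg the count was 10 with all arrays and the rat as a random block, and 0 for each rat left out. For 24 h against 6 h, against 1805 calls, the counts were 1093 with a fold of at least 1.5, 1171 with own RNA in Cy3 only, 2795 with the random block and 743 in the groups compared alone, and 1345 to 2698 with 1 rat left out.

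The tests of named genes were 159, the 10 changes between 6 and 24 h included. In the groups compared alone 38 of them lost their call, 37 of these among the 149 differences from vehicle. Conjugation enzymes went from 7 rises and 9 falls to 6 and 3 there. Apart from these settings and from leaving out single rats, calls were lost for Asns and Abcg2 with Cy5 arrays only, for Sema3c between 24 and 6 h with Cy3 arrays only, for Plg, Psmd6, Psmd9 and Cps1 under the fold threshold and for Cps1 and Abcg2 with 1 row per probe. The causes were not tested. No paired analysis was possible because each rat number belongs to 1 rat and 1 group. Background correction, a filter on dim probes and the slide as a block were not run, since only ratios were used. The dosed rats' spread, the weakly agreeing arrays of dosed rat 5389 and of the vehicle rats other than 1457, the assumed log base and the lack of signal levels limit the precision of single genes.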
